A study of Mus musculus with 6 samples.

Results

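The immediate-early genes Fos, Fosb, Jun, Junb, Jund, Egr1, Ier2 and Ier3 and the MYC family genes Myc and Mycn were followed in mouse embryonic stem (ES) cells with and without the zinc-finger gene Zscan10. The 10 genes were taken by symbol from 23244 loci, and each symbol matched 1 locus. The control group was 3 libraries of an inducible ES cell line whose Zscan10 is floxed, that is flanked by recombination sites for the Cre recombinase, and not deleted. The null group was 3 libraries of a subcloned Zscan10-null ES cell line. The null line is a subclone and the control titles carry a mark, -Tx, that the null titles lack, so genotype, clone and any difference in treatment cannot be told apart. Each group was prepared in triplicate, and whether from separate cultures is not stated, so p-values measure only the spread between these libraries, which may be technical.

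Immediate-early genes are transcribed within minutes of a growth factor or stress signal, without new protein synthesis, and their RNAs decay quickly. Fos and Jun proteins pair through leucine zippers to form the transcription factor AP-1, and Egr1 is a zinc-finger factor switched on by the same ERK kinase signals. Myc and Mycn are basic helix-loop-helix factors that pair with Max and drive ribosome production and cell growth. ES cells express both of them, and they can largely stand in for each other.

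Expression is given as FPKM, fragments scaled to transcript length and sequencing depth, so that levels can be set side by side between genes. The libraries held a rough 7450000 to 8250000 fragments each. Zscan10 was at 43.0 ± 1.14 FPKM in control and 5.13 ± 0.607 FPKM in null libraries (mean ± SD, n = 3 each), in the direction of the labels. The 10 ES cell markers summed to 4342 to 4431 FPKM in control and 4062 to 4395 FPKM in null libraries, with 2 of them lower. The 10 fibroblast or feeder markers summed to 15.6 to 19.1 FPKM in control and 7.74 to 13.7 FPKM in null libraries, and the fibroblast genes Postn, Dcn and Lum each had a mean under 0.1 FPKM in both groups. Of the 3 members of that list that were tested, Acta2 and Tagln were lower (3.93 to 1.73 and 8.80 to 4.86 FPKM) and Thy1 was higher (1.65 to 2.98 FPKM). The untested Col1a1 and Col1a2 went from 0.738 and 1.13 FPKM in control to 0.0861 and 0.0776 FPKM in null libraries, Col3a1 from 0.363 to 0.395 FPKM and Pdgfrb from 0.322 to 0.428 FPKM. Neural markers summed to 79.6 to 88.4 and 61.5 to 69.9 FPKM, endoderm markers to 5.09 to 6.86 and 3.18 to 4.55 FPKM, and mesoderm markers to 2.90 to 3.53 and 6.38 to 7.86 FPKM. Of the mesoderm markers, Eomes (1.4 to 4.3 FPKM) and Hand1 (0.577 to 1.79 FPKM) were higher. The untested T, Mixl1 and Tbx6 had lower means in null libraries (0.337 to 0.254, 0.189 to 0.128 and 0.592 to 0.512 FPKM). Mesp1, also untested, had a higher one (0.0921 to 0.139 FPKM). Tubb3 (67 to 51 FPKM) made up most of the neural sum. Of the 5 tested neural markers, Tubb3 and Pax6 (9.955 to 7.849 FPKM) were called lower in null libraries and 0 higher. Map2 (1.901 to 1.524 FPKM) and Sox1 had lower means and Nes a higher one, without a call. The untested Neurog2, at an estimated 0 to 2 fragments per library, had a higher mean. The part of these cell types in the results below was not tested. In bulk RNA, fewer cells that express a gene and less RNA of it per cell cannot be told apart.

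Levels spanned a wide range. In control libraries the order from high to low was Mycn, Ier2, Jund, Junb, Myc, Ier3, Egr1, Jun, Fos and Fosb, from 83.1 FPKM for Mycn to 0.0961 FPKM for Fosb. Neighbours in that order had ranges that did not overlap, except Egr1 and Jun. In null libraries Ier2, at 65.5 FPKM, came before Mycn, at 57.9 FPKM, and the ranges of those genes overlapped, as did those of Egr1 and Jun. The other 8 genes kept their places.

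**Figure D1:**
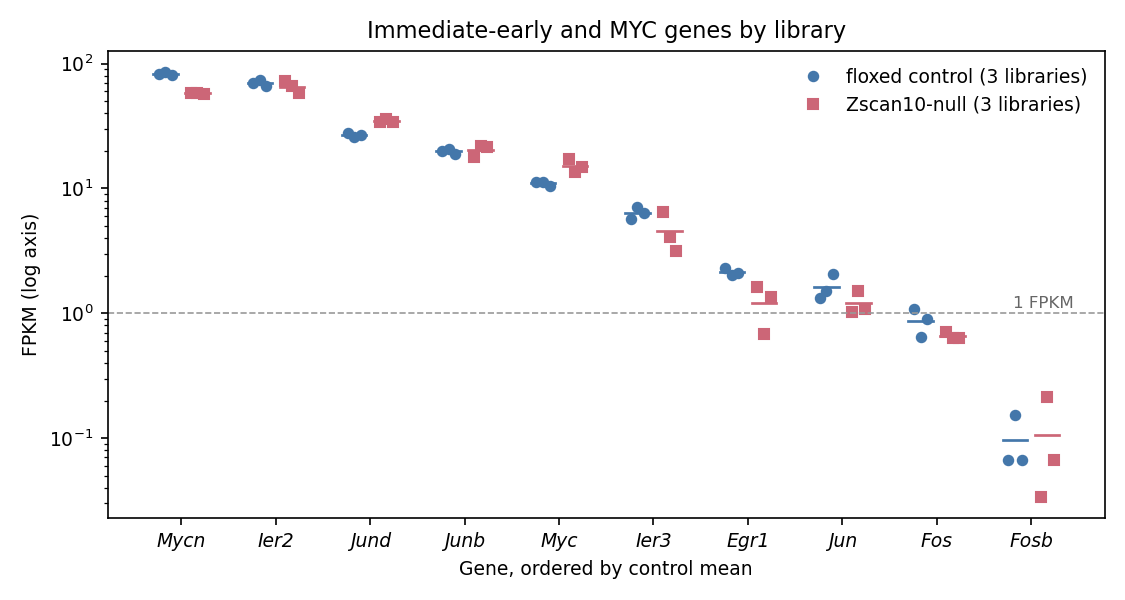
FPKM of the 10 genes (vertical axis, log scale) in the 3 floxed control libraries (circles) and the 3 Zscan10-null libraries (squares), with horizontal bars at the group means and a dashed line at 1 FPKM, the minimum mean for the test. Mycn is lower and Jund and Myc are higher in every null library than in every control library, and Fos and Fosb have means below the line.

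Of the 10 genes, 8 had a mean of at least 1 FPKM and were tested, and 3 passed an adjusted p of 0.05 by limma: Jund and Myc were higher and Mycn was lower in null libraries. Across all 11480 loci tested, 25.2% passed, 12.8% higher and 12.4% lower, so that 3 of 8 is near the share of all loci. The median log2 fold change of the 8 was -0.18, against -0.003 over all tested loci. The null and control values did not overlap for 4 genes, the 3 above and Egr1, against 44.1% of all tested loci. Of these 4, 2 were higher and 2 lower in null libraries, against 21.6% and 22.5% of all tested loci. Without null replicate 1 the count of called genes was 5, with Egr1 and Ier3 added. The share of all loci called in that fit is not set beside it, so this count is not read as a result about these genes.

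Mycn, the more abundant MYC family gene in both groups, was lower in the null cells. It lies on chromosome 12 (mm10, 12936093 to 12941836) and its transcript has 3 exons. Its level was 82.7, 85.6 and 81.0 FPKM in control replicates 1, 2 and 3, and 58.6, 58.6 and 56.6 FPKM in null replicates 1, 2 and 3. All 3 null libraries lay below all 3 control libraries, and the libraries of a group lay close together. From a mean of 83.1 ± 2.32 FPKM to one of 57.9 ± 1.13 FPKM, Mycn fell by 30.3%. The log2 fold change was -0.51 (SE 0.04, 95% interval -0.60 to -0.43, limma adjusted p = 3.60e-04), the smallest adjusted p of the 8 tested genes. Each library held an estimated 1142 to 1883 Mycn fragments. By exact permutation of the 6 libraries (two-sided) p was 0.1, which is the lowest value this design can reach.

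The promoter of Mycn is shown because this gene had the smallest p of the set. The RefSeq promoter table (GRCm38.p6) gives the bases before the gene's start, and those that also lie before the GENCODE start are printed here, 172 bases of the minus strand at chr12:12941915-12942086. Capitals mark the matches to TTTNGCGC, the core bound by E2F factors, searched on both strands. There were 3 matches, 2 on the gene's strand and 1 on the other strand that overlaps the first of them. Of the 6 promoters of the set that were searched, 1 held such a match, against 1.13% of 32851 promoter windows of 250 bases. Other motifs were searched as well and are given with the Fos promoter below.
Mycn: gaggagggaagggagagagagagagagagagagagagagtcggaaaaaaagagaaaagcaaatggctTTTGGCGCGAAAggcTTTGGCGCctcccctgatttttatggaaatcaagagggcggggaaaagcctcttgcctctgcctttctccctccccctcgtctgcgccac

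Myc moved the other way. It lies on chromosome 15 (61985341 to 61990361), with 3 exons, and was at 11.3, 11.3 and 10.4 FPKM in control replicates 1, 2 and 3 and at 17.1, 13.5 and 14.8 FPKM in null replicates 1, 2 and 3. Every null library was above every control library, and null replicate 1 was the highest. The mean rose from 11.0 ± 0.537 to 15.1 ± 1.83 FPKM, 1.38 times the control level. The log2 fold change was 0.42 (SE 0.09, 95% interval 0.22 to 0.63, limma adjusted p = 0.0129). With 1 library left out at a time or another setting, the adjusted p of Myc ran from 0.00818 to 0.0477. An estimated 182 to 298 Myc fragments per library stand behind these values.

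Myc made up a larger part of the MYC family RNA in the null libraries. The ratio of Myc to Mycn FPKM was 0.137, 0.132 and 0.128 in the control libraries and 0.292, 0.230 and 0.262 in the null libraries. It was 0.132 ± 0.00441 on average in control and 0.261 ± 0.0309 in null libraries. Their sum fell with Mycn, from 94.1 ± 2.76 to 73.1 ± 2.30 FPKM, and the groups did not overlap in either quantity. These combinations were chosen after the values of the single genes were seen and are given without a test. Mycl, the third gene of the family, was at 3.70 ± 0.0684 FPKM in control and 3.72 ± 0.0925 FPKM in null libraries (log2 fold change 0.01, SE 0.07, limma adjusted p = 0.959). Max, the partner of all 3, was at 32.7 ± 1.44 and 34.3 ± 1.56 FPKM (limma adjusted p = 0.375).

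**Figure D2:**
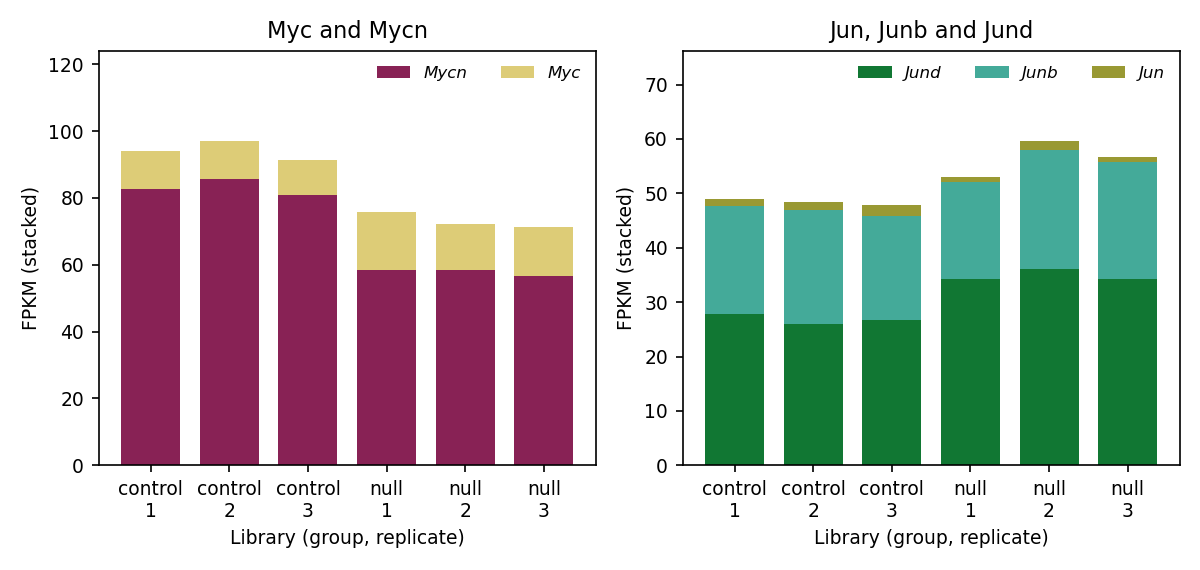
FPKM per library, stacked by gene, for Mycn and Myc (left) and for Jund, Junb and Jun (right), on linear axes from 0, with 1 bar per library. The Mycn part is shorter and the Myc part longer in the 3 null bars, whose total falls to 71.4 to 75.7 FPKM, while on the right the Jund part is longer in each null bar.

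Among the Jun genes, whose proteins are part of AP-1, Jund was higher in the null cells and the others did not pass the test. Jund lies on chromosome 8 (70697739 to 70700616) and its deposited transcript has 1 exon. JUND protein is known as the member that resting cells also express. Its level was 27.8, 26.0 and 26.8 FPKM in control replicates 1, 2 and 3 and 34.3, 36.1 and 34.2 FPKM in null replicates 1, 2 and 3. The groups were separate, and the spread within each was small. The mean rose from 26.9 ± 0.877 to 34.9 ± 1.08 FPKM, or by 29.8% (log2 fold change 0.36, SE 0.05, 95% interval 0.26 to 0.47, limma adjusted p = 0.00201).

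Junb, a Jun gene induced by many signals, lies on the same chromosome (84976909 to 84978748). It was at 19.9, 20.9 and 19.0 FPKM in the control libraries and at 17.8, 21.9 and 21.5 FPKM in the null libraries, so that null replicate 1 was below and the other null libraries above every control library. The difference was 0.03 on the log2 scale, with a 95% interval from -0.17 to 0.22 (limma adjusted p = 0.839), and its sign turned in 3 of the 6 fits that left out 1 library. Jun itself, the founding member (chromosome 4, 95049036 to 95052222), was scarce, at 1.33, 1.51 and 2.06 FPKM in control and 1.02, 1.51 and 1.09 FPKM in null libraries. The groups overlapped through null replicate 2, and the log2 fold change of -0.25 had an interval from -0.58 to 0.08 (limma adjusted p = 0.225). Jund made up 55.5 ± 1.5% of the summed FPKM of the 3 Jun genes in control and 61.8 ± 2.43% in null libraries, and Jun 3.37 ± 0.829% and 2.12 ± 0.355%. The sum was 48.4 ± 0.617 FPKM in control and 56.5 ± 3.24 FPKM in null libraries. Shares and sums were not tested.

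The Fos genes, whose proteins pair with Jun proteins, were the least expressed of the set. Fos, on chromosome 12 (85473890 to 85477274), was at 1.08, 0.641 and 0.892 FPKM in control replicates 1, 2 and 3 and at 0.708, 0.638 and 0.635 FPKM in null replicates 1, 2 and 3, values that rest on an estimated 10 to 17 fragments each. Control replicate 1 was the highest and the groups overlapped, since control replicate 2 lay among the null libraries. Fosb, on chromosome 7 (19302696 to 19310118), was lower still, at 0.0671, 0.154 and 0.0673 FPKM in control and 0.0340, 0.215 and 0.0671 FPKM in null libraries. Once multiplied by relative depth, these values were whole multiples of the lowest and correspond to 2, 5 and 2 fragments in control and 1, 7 and 2 in null libraries. Both genes had means under 1 FPKM and were outside the test. Without that minimum, the log2 fold changes were -0.17 for Fos and 0.01 for Fosb (limma adjusted p = 0.337 and 0.964), and no difference was detected.

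The promoter of Fos is shown as that of the gene that defines the immediate-early class, 250 bases of the plus strand at chr12:85473640-85473889, from the RefSeq table (GRCm38.p6). Capitals mark TGACG, the core of the cAMP response element bound by CREB, and the TATA box TATAAA. Of the 10 genes 7 were in the table, and 6 were searched on both strands: the Jund entry starts from another transcript than the deposited one and was not used. TGACG was found before Fos, Fosb and Junb, in 3 of the 6 windows of 250 bases, against 17.8% of 32851 windows. TATAAA was found before Fos only, in 1 of the 6, against 12.4% of all windows. The GC box GGGCGG was found in 5 of the 6, against 32.7%. The full cAMP response element TGACGTCA (1.55% of all windows), the AP-1 site TGANTCA (6.75%), the E-box CACGTG (6.02%) and the CArG box of serum response factor (1.47%) had 0 matches in these 6 windows. Bases further upstream than 250 were not searched, so a count of 0 does not show that a gene lacks such a site.
Fos: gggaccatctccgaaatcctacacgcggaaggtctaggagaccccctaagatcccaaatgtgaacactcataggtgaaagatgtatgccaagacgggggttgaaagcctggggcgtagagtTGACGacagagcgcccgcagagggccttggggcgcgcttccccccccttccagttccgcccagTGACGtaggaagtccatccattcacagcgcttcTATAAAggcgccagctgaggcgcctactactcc

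Egr1, the zinc-finger immediate-early gene on chromosome 18, had lower values in the null libraries but did not pass the threshold. It was at 2.30, 2.03 and 2.10 FPKM in control replicates 1, 2 and 3 and at 1.61, 0.688 and 1.34 FPKM in null replicates 1, 2 and 3. The groups did not overlap, and null replicate 2 was far below the other null libraries. The null mean of 1.21 ± 0.474 FPKM was 0.566 times the control mean of 2.14 ± 0.138 FPKM. The log2 fold change was -0.53 (SE 0.16, 95% interval -0.91 to -0.15, limma adjusted p = 0.0518). It passed without null replicate 1 (-0.66, adjusted p = 0.0270) and with a robust variance estimate (adjusted p = 0.0393). Over all alternatives the adjusted p of Egr1 ran from 0.0270 to 0.136. With a pseudocount of 0.1 in place of 1 the log2 fold change was -0.85, because adding 1 to values this low shrinks their ratio.

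Ier2, a nuclear immediate-early protein gene on chromosome 8 (84661331 to 84662852), was the most abundant immediate-early gene of the set. It was at 70.1, 73.5 and 66.3 FPKM in control and 72.5, 66.1 and 57.8 FPKM in null libraries, which overlapped, and null replicate 3 was the lowest. The log2 fold change was -0.10, with an interval from -0.29 to 0.09 (limma adjusted p = 0.407). Ier3, a stress-induced gene that regulates cell survival, lies on chromosome 17 (35821713 to 35822911), which also carries Zscan10. The control libraries held 5.70, 7.10 and 6.41 FPKM and the null libraries 6.47, 4.10 and 3.13 FPKM. Null replicate 1 lay within the control range and the other null libraries below it. The log2 fold change was -0.45 (SE 0.20, 95% interval -0.93 to 0.02, limma adjusted p = 0.143), and without null replicate 1 it was -0.69 (adjusted p = 0.0128).

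**Figure D3:**
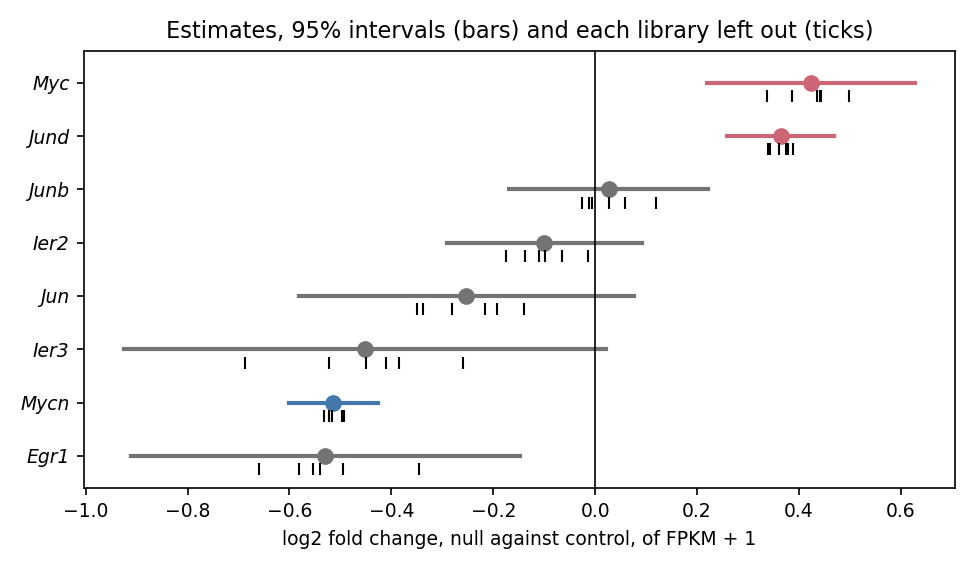
Log2 fold change of FPKM + 1, null against control (horizontal axis), for the 8 tested genes, with the limma estimate (dot), its 95% interval (bar) and the estimates with 1 of the 6 libraries left out (ticks under each bar). Coloured genes passed an adjusted p of 0.05; the intervals of Ier3, Jun, Ier2 and Junb include 0, and the ticks of Junb lie on both sides of it.

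**Figure D4:**
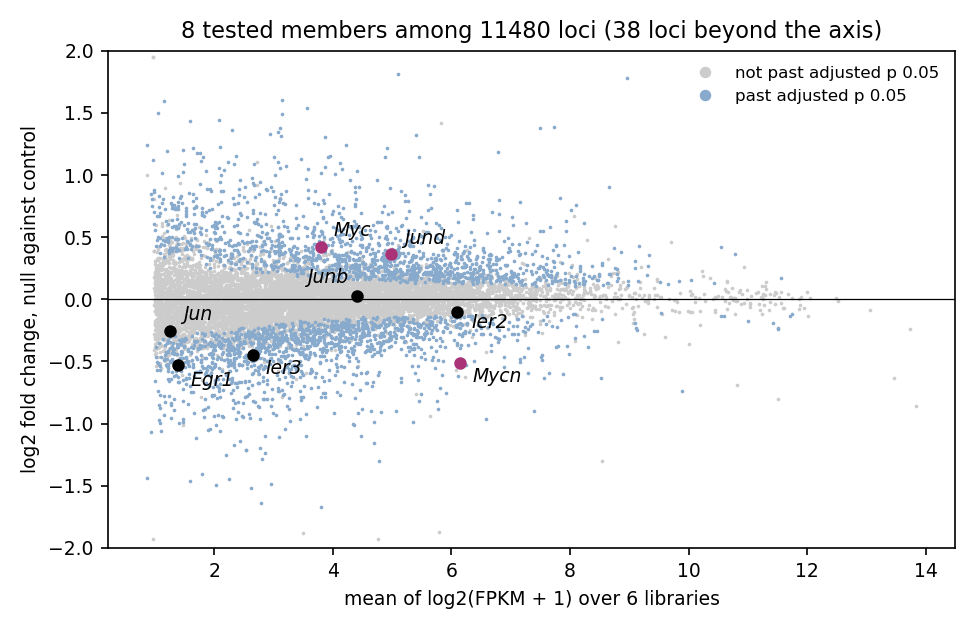
Log2 fold change, null against control, against the mean of log2(FPKM + 1) for all 11480 tested loci (small dots, darker where past an adjusted p of 0.05), with the 8 tested genes marked; 38 loci lie beyond the vertical axis. Mycn, Myc and Jund, the genes in colour, lie within the cloud of called loci.

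The spread between replicates differed widely among the 10 genes and was larger in null libraries for several of them. The coefficient of variation (SD over mean) of Mycn was 2.80% in control and 1.95% in null libraries, and that of Jund 3.26% and 3.11%. For Egr1 it was 6.46% in control and 39.1% in null libraries, where counting the estimated fragments alone would give about 18.9%. For Ier3 it was 10.9% and 37.7%, with about 15.9% from counting in the null libraries, and for Myc 4.89% and 12.1%, with about 6.05%. The difference in spread between the groups was not tested. Fos, at 25.3% in control and 6.21% in null libraries, did not exceed the 26.6% and 30.5% that its few fragments alone would give. Within-group SDs of log2 values placed Ier3 above 97.5%, Egr1 above 93.5% and Jun above 87.8% of all tested loci, and Jund and Mycn above only 13.8% and 6.74%. These ranks were not matched for expression level, and Ier3, Egr1 and Jun had fewer estimated fragments than Jund and Mycn. Among the null libraries, replicate 1 was the highest for 6 of the 10 genes and replicate 3 for 0.

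Other immediate-early genes were called in both directions. Of 39 listed, 31 were tested, and 9 were higher and 5 lower, which is 45.2% of those tested, against 25.2% of all tested loci (12.8% higher and 12.4% lower). The median log2 fold change was 0.07, against -0.003 over all tested loci. The split was 5 higher and 3 lower without control replicate 1, 4 and 4 without control replicate 2, 6 and 4 without control replicate 3, 6 and 3 without null replicate 2 or 3, and 11 and 8 without null replicate 1. Here and for the lists below, the share of all loci called in the same alternative fit is not set beside such counts. Calls over all loci also changed between fits, so these counts are not read as results about the listed genes. Gadd45b, a stress sensor, rose from 5.17 ± 0.588 to 9.90 ± 1.13 FPKM (log2 fold change 0.82, limma adjusted p = 0.00216), and the stress-responsive kinase gene Plk3 from 9.50 ± 0.735 to 14.3 ± 0.968 FPKM. Trib1, a pseudokinase gene, rose from 1.80 to 2.76 FPKM and the antiproliferative gene Btg2 from 6.54 to 9.20 FPKM. Lower in null libraries were the small GTPase gene Rhob, from 6.01 ± 0.957 to 4.12 ± 0.0329 FPKM, and Nfkbia, which encodes an inhibitor of NF-kappaB, from 18.7 ± 0.837 to 14.1 ± 1.42 FPKM. Of these 6 genes, Gadd45b and Plk3 passed in every alternative. Trib1 was lost without control replicate 2, Nfkbia without control replicate 1 and Rhob without null replicate 2 or 3. Btg2 was lost in 8 alternatives, among them leaving out any library but null replicate 1. Egr2, Egr3, Egr4, Nr4a2, Nr4a3 and Npas4, named after their values were seen, had means under 0.2 FPKM in both groups, and Egr4 and Nr4a3 were listed at 0 in all 6 libraries.

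AP-1 and ATF relatives, which form dimers with Fos or Jun proteins or share their sites, were mostly scarce: 7 of 15 were tested, 1 was higher and 2 were lower, and the median log2 fold change was -0.06. That is 42.9% of those tested, against 25.2% of all tested loci. Jdp2, which encodes a repressor that pairs with Jun proteins, fell from 7.80 ± 0.639 to 2.81 ± 0.442 FPKM (log2 fold change -1.21, SE 0.11, limma adjusted p = 6.13e-04). With a pseudocount of 0.1 in place of 1 that log2 fold change was -1.45. Mafg fell from 26.7 ± 1.76 to 22.9 ± 0.799 FPKM, and Atf2 rose from 31.8 ± 1.81 to 36.4 ± 0.681 FPKM. Only Jdp2 passed in every alternative. The count was 1 without control replicate 1 or any single null library, and with quantile normalization it was 0 higher and 2 lower. Below the minimum, and named after their values were seen, Atf3 was at 1.18 ± 0.0835 FPKM in control and 0.526 ± 0.287 FPKM in null libraries, and Fosl2 at 0.692 ± 0.179 and 0.294 ± 0.0358 FPKM. When no minimum was set, limma gave them adjusted p = 0.0535 and 0.0330.

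The kinases and transcription factors that switch immediate-early genes on showed small differences. Of 25 listed and tested, 3 were higher and 3 lower, 24.0% of the list and near the 25.2% of all tested loci, with a median of -0.02. Braf and Map2k1, which encode kinases of the ERK cascade, rose from 9.89 to 13.7 and from 38.2 to 43.0 FPKM. Creb1, the factor that binds cAMP response elements, fell from 14.6 ± 0.682 to 12.1 ± 0.146 FPKM (limma adjusted p = 0.0140), and the JNK pathway kinase genes Map2k4 and Mapk9 from 24.7 to 21.2 and from 11.7 to 10.1 FPKM. Of the 6 called genes, 0 passed in every alternative: the count was 0 without control replicate 1, 2 without control replicate 2, 1 without control replicate 3 and 2 without null replicate 2, and quantile normalization left 1 higher and 2 lower. Calls over all loci also changed between these fits and are not set beside these counts.

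Of 21 tested partners, antagonists and turnover factors of MYC proteins, 3 were higher and 3 lower, with a median of -0.02. That is 28.6% of the list, near the 25.2% of all tested loci. Usp36, a nucleolar deubiquitinase that stabilises MYC, fell from 12.2 ± 0.786 to 8.16 ± 0.329 FPKM (log2 fold change -0.53, SE 0.07, limma adjusted p = 0.00201). Mga, a Max partner of non-canonical Polycomb complexes, fell from 64.6 ± 1.71 to 54.8 ± 1.87 FPKM (adjusted p = 0.00733), and the ubiquitin ligase gene Huwe1 from 82.1 to 74.7 FPKM. Zbtb17, a zinc-finger partner of MYC, rose from 9.49 to 11.2 FPKM, and the ATPase genes Ruvbl1 and Ruvbl2 from 102.6 to 117 and from 138 to 154 FPKM. Usp36 and Mga passed in every alternative, and the count was 2 without control replicate 1 or null replicate 3 and 3 without control replicate 2, control replicate 3 or null replicate 1. The split was 1 higher and 3 lower with quantile normalization.

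MYC target genes, mostly of ribosome production and metabolism, were largely without a call. Of 63 tested, 12 were higher and 6 lower, and 45 did not pass. The called share of 28.6% is near the 25.2% of all tested loci (12.8% higher and 12.4% lower), and the median log2 fold change was 0.04. With median centring of the libraries 14 were higher and 3 lower. Ldha, lactate dehydrogenase A, rose from 494 ± 20.9 to 664 ± 11.6 FPKM (log2 fold change 0.43, limma adjusted p = 8.15e-04). Tfrc, the transferrin receptor, rose from 121 ± 1.69 to 159 ± 1.23 FPKM, the sorbitol dehydrogenase gene Sord from 11.2 to 15.3 FPKM, and the ribosome assembly gene Nip7 from 68.0 to 88.2 FPKM. The D-type cyclin gene Ccnd2 fell from 2.77 ± 0.279 to 0.885 ± 0.136 FPKM (log2 fold change -0.998, adjusted p = 0.00115) and Tert, the catalytic subunit of telomerase, from 3.91 to 2.85 FPKM. With a pseudocount of 0.1 in place of 1, the log2 fold change of Ccnd2 was -1.55. Ldha, Tfrc, Sord, Nip7 and Ccnd2 passed in every alternative, whereas Tert was lost in 9. The count was 11 without control replicate 1 or 2. The 6 lower genes became 1 without control replicate 2, control replicate 3 or null replicate 2, 2 without control replicate 1, with no minimum or with a replicate block, and 3 without null replicate 3 or with a minimum of 5 FPKM, while the higher genes numbered 9 to 14 over all alternatives.

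**Figure D5:**
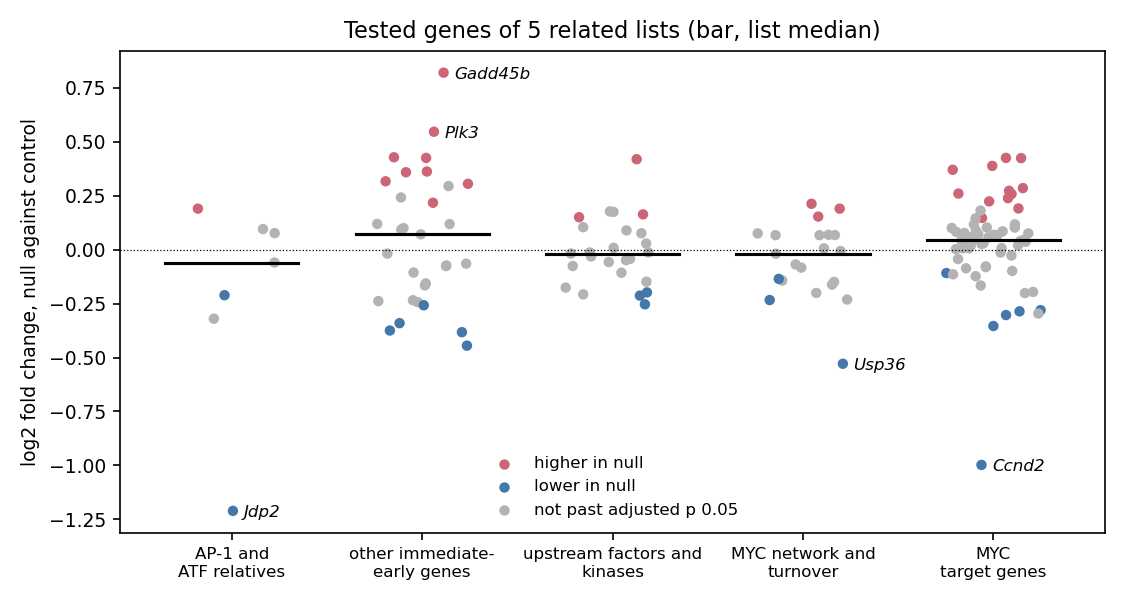
Log2 fold change, null against control, of each tested gene (dots) in 5 lists of related genes, with the list median (horizontal bar); coloured dots passed an adjusted p of 0.05. Medians lie between -0.06 and 0.07, with called genes on both sides of 0 in every list.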

How the data were processed

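RNA depleted of ribosomal RNA was sequenced in 6 libraries of mouse ES cells, 3 per group. The deposited values, 1 per locus and library for 23244 loci, behave as FPKM made by the authors: they are not whole, are smallest at long genes, and have totals that differ between libraries, while no label or header names their unit. Cuffdiff, TopHat, FastQC, Trim Galore and the build mm10 appear, per the submitters' processing notes, without version or role, and nothing here states strand use or scaling between libraries. Members were found by symbol. The members and lists were chosen with earlier results of these data known.

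Groups were compared by limma 3.58.1 (R 4.3.3), a linear model with trended empirical Bayes variances, using log2(FPKM + 1) of the 11480 loci whose 6-library mean reached 1 FPKM, and Benjamini-Hochberg adjustment over all of them at 0.05. On simulated data with 200 of 11480 loci changed, it recovered 33.6% of 1.25-fold and 86.0% of 1.5-fold changes of FPKM + 1. Of its calls there, 5.22% were false. Far more loci, 25.2%, were called in the data than were changed in the simulation, so these rates are not those of the fit used here. A gene that did not pass may still differ by a small amount. Adding 1 shrinks the log2 fold changes of genes at low FPKM. Alternatives changed the pseudocount, the minimum, the library scaling and the variance model, added a replicate block, or left out each library in turn. Fragment numbers are rough estimates from the steps between low values and the GENCODE M21 transcript length. Named list genes are the up to 6 called genes per list with the largest absolute fold change; 1 of them is not reported here, and genes outside the rule are marked where they appear. Gene positions come from RefSeq on GRCm38.p6, which is mm10.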

Additional observations from a re-analysis of the deposited data

How the results depend on the processing

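Jund, Myc and Mycn kept their direction and their side of the threshold in all 8 planned settings and with each of the 6 libraries left out, as did Ier2 and, in the 8 settings, Ier3 and Junb. Jun kept both wherever it was tested; with a minimum of 5 FPKM, Jun and Egr1 were not. Egr1 passed with a robust variance estimate (log2 fold change -0.53), and with a pseudocount of 0.1 the within-group SD of log2 values was 0.42 for Egr1 and 0.294 for Jun, against 0.235 and 0.187 with 1. With 1 library left out, log2 fold changes ran from -0.66 to -0.35 for Egr1, from -0.69 to -0.26 for Ier3 and from -0.03 to 0.12 for Junb, which was -0.00563 without control replicate 3, -0.0257 without null replicate 2 and -0.012 without null replicate 3. In the same left-out fits, the count of called genes among the 8 ran from 3 to 5, and that of all loci from 1697 to 2903. Counts of called list genes in these left-out fits ran from 1 to 2 for AP-1 and ATF relatives, from 8 to 19 for other immediate-early genes and from 0 to 5 for upstream factors. They ran from 2 to 4 for the MYC network and from 11 to 17 for MYC targets. The count of upstream factors was 3 without a minimum, with quantile normalization and without a variance trend, and that of AP-1 relatives was 1 without a variance trend. The cause was not tested. Of 47 called list genes, 27 passed in all settings that kept every library, 19 with each library left out, and 0 changed sign.

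Control and null libraries share replicate numbers. Deviations of same-numbered libraries correlated at -0.00242, 0.108 and 0.0527, and not every library correlated best with its own number, so the numbers were not taken as pairs. With a replicate block 2264 loci, and the same 3 of the 8 genes, were called, with log2 fold changes of 0.36 for Jund, 0.42 for Myc and -0.51 for Mycn. In the block fit the counts were 1 for AP-1 relatives, 3 for upstream factors and 3 for the MYC network. Fos and Fosb had the fewest estimated fragments, and Egr1, Jun and Ier3 the next fewest. In null libraries the spread of Egr1 and Ier3 was larger than counting alone would give.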

Other observations

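Pvt1, the long noncoding RNA gene next to Myc, was the only other tested locus within 250 kb of Myc. It was at 5.68, 5.48 and 5.99 FPKM in control and 4.57, 5.19 and 4.76 FPKM in null libraries, below every control library while Myc was above every one (log2 fold change -0.20, SE 0.07, limma adjusted p = 0.0808). Of 25 tested loci within 250 kb of Jund, 6 were higher and 2 lower, against 12.8% and 12.4% of all tested loci. The medians over the tested loci of chromosomes 8, 12 and 15, which carry Jund, Mycn and Myc, were -0.00195, -0.0123 and -0.00263 on the log2 scale.

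Among 7732 named loci whose mean reached 5 FPKM, those whose centred log2 values over the 6 libraries lay closest to Mycn were Mettl9, Tspan5 and Tns3, with mean absolute differences of 0.0202, 0.0269 and 0.0283. Mettl9 was at 9.43 FPKM in control and 6.35 FPKM in null libraries. The closest to Myc were Lpar1, Lrp2 and Zfp518b (0.0281, 0.0405 and 0.0414); the endocytic receptor gene Lrp2 was at 18.4 and 25.3 FPKM. The closest to Egr1 were Slc47a1, Evl and Rnf130 (0.0600, 0.0744 and 0.0815). The closest to Fos were Trmt1l, Cbr1 and Ddc (0.0260, 0.0333 and 0.0355). The Fos values rest on an estimated 10 to 17 fragments per library, with a spread no larger than counting alone would give. Among so many loci some lie close to any 6 values, and closeness was not tested.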
